A study of Drosophila melanogaster with 12 samples.

Results

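The genes described here are 38 synaptic and neuronal excitability genes of Drosophila melanogaster, chosen by name for their known roles and followed across 12 Affymetrix arrays of eye-antennal imaginal discs. The choice was made with earlier results of these data known, so the counts below describe the set and are no independent test of it. A gene was followed through the probe set (the group of array probes summarised into 1 value) whose annotation names that gene alone, and where a gene had several, the one with the highest mean signal stood for it. In all, 34 of the 38 genes had such a probe set, out of 11982 genes named by a single symbol on the array, and 32 of the 34 were bright enough to be tested. Syx1A, Syt1, comt and Eaat1 had no probe set of their own by this rule and are not analysed here. Each array carried RNA pooled from 30 disc pairs of wandering larvae at the third instar, with 100 ng of total RNA as the starting amount. The 4 genotypes were measured on 3 arrays each, labelled as biological replicates. In the first, called the allele pair here, larvae carried the driver ey-Gal4, the transgene UAS-wge and the alleles Su(var)3-9[1] and Su(var)3-9[2] of a histone methyltransferase gene. In ey>wge, driver and transgene were combined, a genotype meant to drive winged eye, a chromatin-associated protein, in cells of the eyeless domain, and the series title calls these discs transdetermined. The UAS-wge and ey-Gal4 groups were the parental controls, which carried the transgene alone and the driver alone. No group carried the alleles without driver and transgene, and what they do in other discs cannot be read from these arrays.

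Neurons signal by releasing transmitter from synaptic vesicles. SNARE proteins on the vesicle and on the plasma membrane pull the membranes together, a scaffold called the active zone holds vesicles close to calcium channels, and sodium and potassium channels shape the electrical signal that opens them. The RNA-binding proteins of the ELAV family are switched on as cells leave the progenitor state and become neurons, and they process the transcripts of many neuronal genes. In the eye disc of the wandering larva, photoreceptors differentiate behind the morphogenetic furrow and send axons through the optic stalk toward the brain, while most of their synapses form later, in the pupa.

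All values are MAS5 signals, an intensity on a linear scale, and they were analysed as log2(signal + 16), so that a fold change understates the change of a dim gene. A probe set was tested when it lay above the 40th percentile of its array on at least 3 of the 12 arrays, and this percentile fell between 21.2 and 28.6 signal units. Of the members, 17 lay above it on all 12 arrays, 15 on 3 to 11 arrays and 2 on fewer than 3. para, Shab and VAChT passed on 3 arrays only. Because a gene can pass through the group in which it is bright, the counts below describe the 32 tested genes and not the whole set of 38. The targeted gene wge itself read 925 to 1162 in ey>wge, against 801 to 931 in UAS-wge and 776 to 951 in ey-Gal4. That is a log2 change of 0.32 ± 0.17 (SE) in ey>wge against both controls that missed the threshold (adjusted p = 0.498), and whether its probes match the transgene is not recorded here. With the allele pair wge read 443 to 875, lower than in ey>wge by a log2 change of -0.72 ± 0.20 (adjusted p = 0.0358). Su(var)3-9 is not analysed here. The disc's identity genes were present in every group: Dll, the antennal and distal limb selector, read at least 1469 on every array, and ey, the retinal determination gene, at least 213. The labels do not say more of how the replicates were raised, so the p-values measure the spread between these arrays. Allele-pair replicates 2 and 3 stood apart from the other arrays, with median signals of 33.0 and 34 against 38.7 to 44.4 elsewhere and with first principal component scores of 51.6 and 66.8 against a highest score of 17.2 elsewhere.

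**Figure D1:**
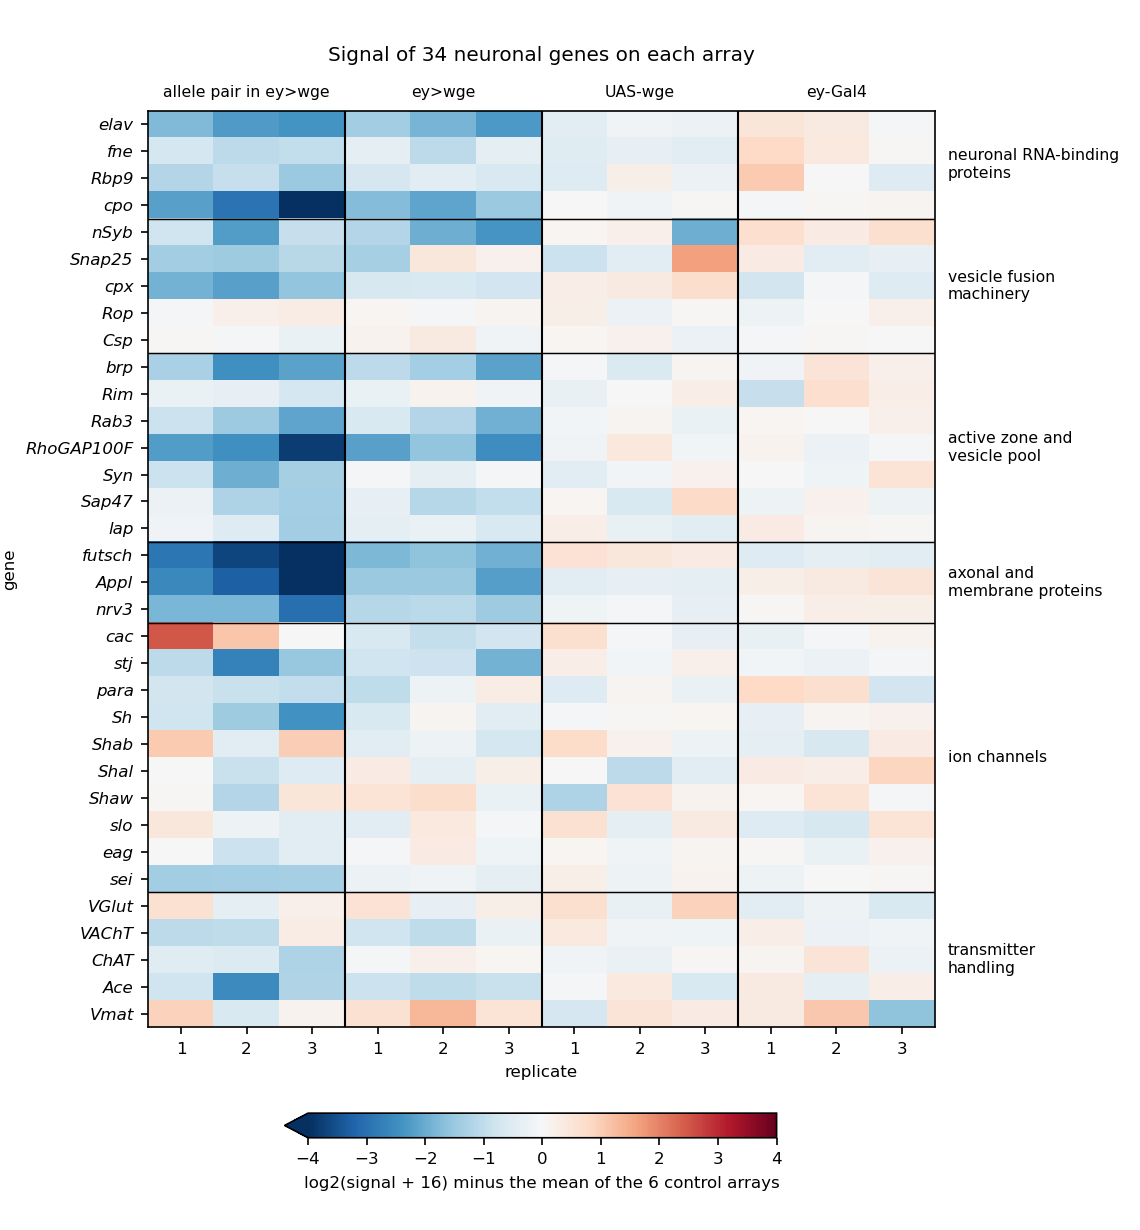
Signal of each of the 34 genes on each of the 12 arrays, drawn as log2(signal + 16) minus that gene's mean over the 6 control arrays (blue lower, red higher; the arrow on the scale marks values beyond its end). Rows are genes grouped by role, and columns are replicates within the allele pair, ey>wge, UAS-wge and ey-Gal4. The axonal genes, elav, cpo and RhoGAP100F are blue on all 6 arrays with ey>wge, while most channel and transmitter genes show no common colour.

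In ey>wge discs, a part of the neuronal gene set fell and none of it was called higher. Of the 32 tested genes, 9 were lower in ey>wge than in the average of both controls (Benjamini-Hochberg adjusted p under 0.05 in limma) and 0 were higher, where 2.07% of all 13817 probe sets tested were lower and 0.897% higher. The 9 were elav, cpo, nSyb, brp, Rab3, RhoGAP100F, futsch, Appl and nrv3, with falls between 2.32-fold and 4.19-fold. The median change was -0.59 over the tested members and 0.01 over all probe sets tested, and 14 of the 32 had an unadjusted p under 0.05. By role, 2 of 4 RNA-binding proteins, 1 of 5 fusion proteins, 3 of 7 active zone and vesicle pool genes and 3 of 3 axonal genes were called, against 0 of 9 ion channels and 0 of 4 transmitter genes. Median control signals were 1123.1 to 3021 in the axonal genes and 773.9 in the channel gene sei. In the other tested channel and transmitter genes they were 14.15 to 141.75. A fall is harder to call in a dim gene, so the roles are not compared on equal terms. In 12 of the 32 genes every ey>wge array read below all 6 control arrays, where 4.44% of all probe sets did so. Because these are whole discs, fewer neurons in the disc and less RNA in each neuron cannot be told apart.

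Among the RNA-binding proteins, elav and cpo fell. elav, the standard marker of differentiated neurons, read 422, 300.1 and 218 in ey>wge, against 846, 1023 and 959.6 in UAS-wge and 1617, 1467 and 1106 in ey-Gal4. Every ey>wge array was below every control array, and the fall was 3.62-fold, a log2 change of -1.86 ± 0.19 (SE, adjusted p = 1.08e-05). cpo, couch potato, an RNA-binding protein of the peripheral nervous system, read 1252.5, 959 and 1493 in ey>wge, against 4257, 3784.5 and 4358 in UAS-wge and 3956, 4385 and 4522 in ey-Gal4. The groups were far from overlapping, with a change of -1.78 ± 0.31 (adjusted p = 0.00177). The ELAV relatives fne and Rbp9 were not called. fne read 66.2, 36.3 and 66.1 in ey>wge, against 61.5, 69.2 and 64.5 in UAS-wge and 171, 124 and 96.5 in ey-Gal4. The ey>wge arrays of fne overlapped those of UAS-wge and lay below those of ey-Gal4 (-0.61 ± 0.26, adjusted p = 0.357), and Rbp9 had a change of -0.57 ± 0.30.

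**Figure D2:**
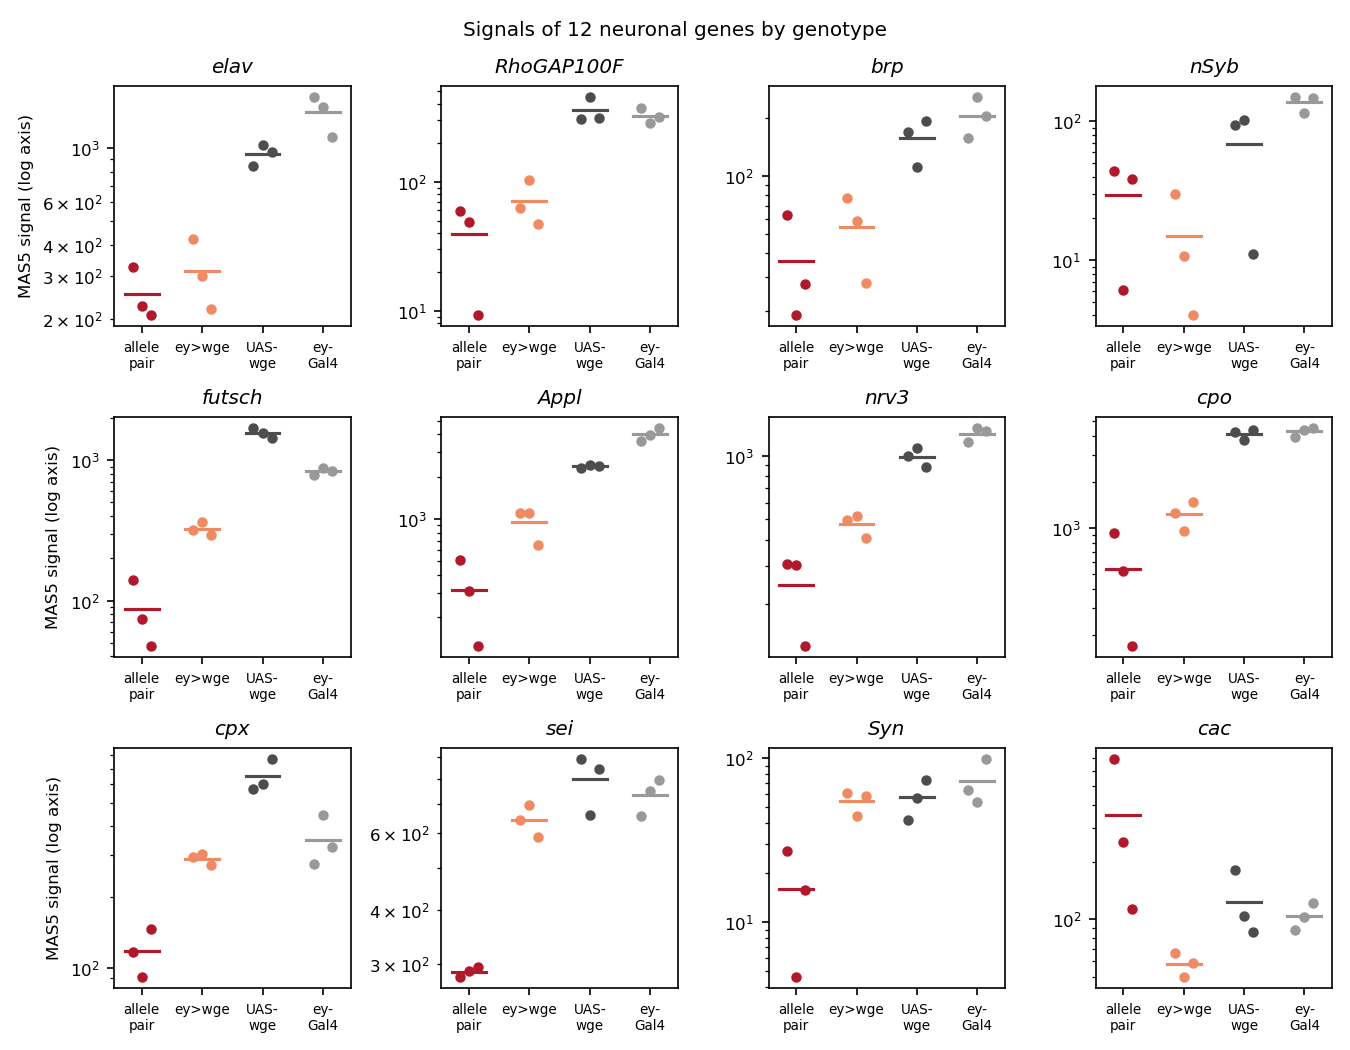
MAS5 signal on each array (points, log axis with its own range in each panel) and the mean of 3 arrays (line) for 12 genes in the allele pair, ey>wge, UAS-wge and ey-Gal4. For elav, RhoGAP100F, brp, futsch, Appl, nrv3 and cpo the ey>wge points lie below all 6 control points, and for cac the allele-pair points lie above the ey>wge points.

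Of the vesicle fusion machinery 1 of 5 tested genes, nSyb, was called. nSyb, the neuronal synaptobrevin of the vesicle membrane, read 29.8, 10.7 and 4.0 in ey>wge, against 93.5, 102 and 11 in UAS-wge and 149.9, 115 and 146 in ey-Gal4. Its ey>wge arrays were low, but UAS-wge replicate 3 was just as low, and the change of -1.83 ± 0.45 had an adjusted p of 0.0305. This call was lost without any of 7 arrays (each ey-Gal4 array, UAS-wge replicates 1 and 2, and ey>wge replicates 2 and 3), and the same 7 arrays decided the call of Rab3 below. cpx, complexin, which clamps SNARE complexes until calcium enters, read 294, 305 and 271 in ey>wge, against 574, 603 and 770.0 in UAS-wge and 275, 444 and 325 in ey-Gal4. The ey>wge arrays of cpx were below all UAS-wge arrays and within reach of those of ey-Gal4, and the change of -0.67 ± 0.19 against both controls did not pass (adjusted p = 0.0711). Csp, the cysteine string protein, a chaperone on the vesicle, read 3741, 4313 and 3043 in ey>wge, against 3590.4, 3791 and 2880.0 in UAS-wge and 3282, 3471 and 3333.5 in ey-Gal4. Its groups overlapped fully, with a change of 0.12 and a 95% interval from -0.14 to 0.38. Rop, the Sec1/Munc18 partner of syntaxin, likewise had a change of 0.04 with an interval from -0.26 to 0.34. Snap25, the SNARE of the plasma membrane, changed by -0.23 ± 0.45, and its widest group, UAS-wge, spanned 70.2 to 471.

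At the active zone, RhoGAP100F, brp and Rab3 fell. RhoGAP100F, the fly Syd-1, which sets up new active zones, read 62.9, 103 and 47.4 in ey>wge, against 306, 454 and 312 in UAS-wge and 369, 287 and 315 in ey-Gal4. The groups did not overlap, and its change of -2.07 ± 0.31 (adjusted p = 0.000378), or 4.19-fold, was the largest fall among the tested members. brp, Bruchpilot, the scaffold of the active zone, read 77.0, 58.8 and 27.8 in ey>wge, against 169, 112 and 192 in UAS-wge and 157, 257 and 204 in ey-Gal4. Its change was -1.52 ± 0.31 (adjusted p = 0.0069). Rab3, the GTPase of synaptic vesicles, read 99.4, 61.6 and 30.8 in ey>wge, against 146, 175 and 129.5 in UAS-wge and 169, 157 and 187 in ey-Gal4. All ey>wge arrays of brp and of Rab3 lay below all control arrays, and the change of Rab3 was -1.23 ± 0.30 (adjusted p = 0.0305). Without ey>wge replicate 3, the lowest of the 3 in both genes, neither was called. The other members of this role were Rim, an active zone scaffold that binds Rab3 (-0.09 ± 0.34), Syn, the vesicle-tethering synapsin (-0.17 ± 0.31), Sap47, a synapse-associated protein (-0.81 ± 0.29), and lap, a clathrin adaptor of vesicle recycling (-0.41 ± 0.23), and none of these passed.

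All 3 axonal and membrane genes fell. futsch, the fly MAP1B, which binds axonal microtubules, read 320.1, 364 and 292 in ey>wge, against 1697.5, 1559.6 and 1438 in UAS-wge and 789.5, 875 and 842 in ey-Gal4. The 3 groups were separate from one another, with ey>wge lowest and a change of -1.77 ± 0.21 (adjusted p = 3.77e-05). Appl, the fly relative of the amyloid precursor protein, read 1095, 1101 and 656.5 in ey>wge, against 2316, 2435 and 2381 in UAS-wge and 3607, 3957 and 4434 in ey-Gal4. ey>wge was again lowest, and the change was -1.72 ± 0.27 (adjusted p = 0.000706). nrv3, a beta subunit of the neuronal sodium-potassium pump, read 497, 519 and 410.2 in ey>wge, against 994, 1087.5 and 888 in UAS-wge and 1159, 1351 and 1305 in ey-Gal4. Its arrays did not overlap either, at -1.21 ± 0.21 (adjusted p = 0.00163).

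No ion channel passed the test in ey>wge. stj, the alpha2delta subunit that brings calcium channels to the active zone, came closest, with 55.9, 55.1 and 18.1 in ey>wge, against 135, 101 and 129.7 in UAS-wge and 101, 91.9 and 106 in ey-Gal4. Its arrays did not overlap, but the change of -1.17 ± 0.35 had an adjusted p of 0.0905. cac, the pore-forming subunit of the synaptic calcium channel, read 66.8, 49.5 and 59.0 in ey>wge, against 182, 104 and 85.6 in UAS-wge and 87.4, 103 and 122 in ey-Gal4. The ey>wge arrays of cac lay below all controls by a smaller distance (-0.77 ± 0.38, adjusted p = 0.438). sei, seizure, the fly ERG potassium channel, read 644, 698 and 589 in ey>wge, against 892, 661 and 847 in UAS-wge and 659, 751 and 796.5 in ey-Gal4, so that its groups overlapped (-0.24 ± 0.14). The sodium channel gene para and the voltage-gated potassium channel genes Sh, Shab, Shal, Shaw and eag had changes between -0.44 and 0.33, all with an adjusted p of at least 0.782. slo, the calcium-activated potassium channel, was too dim to test, with 5.5, 23.0 and 12 in ey>wge, 29.7, 6.6 and 21.9 in UAS-wge and 4.8, 3.1 and 27.7 in ey-Gal4.

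The transmitter genes were dim and none was called. Ace, the acetylcholinesterase, read 63.7, 55.6 and 62.2 in ey>wge, against 124, 174 and 79.1 in UAS-wge and 169.9, 98.3 and 159.4 in ey-Gal4. The arrays of Ace did not overlap, with a change of -0.93 ± 0.34 that did not pass (adjusted p = 0.227). VAChT, the vesicular transporter of acetylcholine, read 5.1, 2.2 and 14.8 in ey>wge, against 32.9, 17.8 and 16.8 in UAS-wge and 27.9, 15.5 and 17.7 in ey-Gal4, mostly below the 40th percentile of the arrays. Vmat, the vesicular transporter of monoamines, read 69.6, 123 and 64.5 in ey>wge, against 18.6, 63.8 and 54.1 in UAS-wge and 55.5, 101 and 2.4 in ey-Gal4. Its highest array was in ey>wge and its lowest in ey-Gal4, with a change of 0.82 ± 0.49 that did not pass. ChAT, which makes acetylcholine, changed by 0.06 ± 0.30. VGlut, the vesicular glutamate transporter, was too dim to test, with 23.0, 5.0 and 15 in ey>wge, 24.5, 5.2 and 34 in UAS-wge and 3.2, 7.0 and 1.1 in ey-Gal4.

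Setting ey>wge against each control in turn shows which falls do not rest on 1 of them. Against UAS-wge 8 of the 32 genes were lower (1.96% of all probe sets tested), against ey-Gal4 9 were lower (2.29%), and 7 were lower in both comparisons (1.19%). The 7 were elav, cpo, brp, RhoGAP100F, futsch, Appl and nrv3. Of these, elav, RhoGAP100F and futsch were called against both controls whichever array was left out. The weakest was brp against UAS-wge (-1.34, adjusted p = 0.0428), which was not called without any of the 6 control arrays or without ey>wge replicate 2 or 3. Against UAS-wge, Appl was lost without each of 3 UAS-wge arrays or ey>wge replicate 3, nrv3 without UAS-wge replicate 1 or 2 or ey>wge replicate 1 or 3, and cpo without ey>wge replicate 2. nSyb and Rab3 were called against ey-Gal4 only, and cpx against UAS-wge only, at -1.11 ± 0.22 (adjusted p = 0.00459). The controls themselves differed in 2 members, cpx and futsch, both higher in UAS-wge than in ey-Gal4, where 2.31% of all probe sets were higher and 4.99% differed in either direction. The differences were 0.88 ± 0.22 for cpx (adjusted p = 0.0204) and 0.89 ± 0.24 for futsch (adjusted p = 0.0376). futsch was below both controls all the same, and its change was -2.21 ± 0.24 against UAS-wge and -1.32 ± 0.24 against ey-Gal4. The call of cpx was lost without any of 4 control arrays (ey-Gal4 replicates 1 and 3, UAS-wge replicates 2 and 3), and that of futsch without any of the 6 control arrays or of ey>wge replicates 1 and 2. Without single arrays the count was 0 to 3.

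In discs with the Su(var)3-9 allele pair, some of the neuronal genes read lower than in ey>wge and 1, cac, read higher. Fits that leave out allele-pair arrays are given below. The part in these differences of the lower wge signal, and of whatever set replicates 2 and 3 apart, was not tested. Against ey>wge, 7 of the 32 tested genes were lower, where 4.57% of all probe sets were lower, and 1 was higher, where 2.23% were. The 7 were cpo, cpx, Syn, futsch, Appl, nrv3 and sei. The median change was -0.56 over the tested members and -0.08 over all probe sets. Centring each array on its median, in place of the deposited scale, moves that median of all probe sets to 0.22. In 10 of the 32 genes all allele-pair arrays lay below all ey>wge arrays (13.6% of all probe sets), and in 1 above them (8.63%). Of the 9 genes that were lower in ey>wge than in the controls, cpo, futsch, Appl and nrv3 were lower again with the allele pair, and elav, nSyb, brp, Rab3 and RhoGAP100F were not called. The ey>wge arrays serve in both comparisons, so the calls are not independent of each other. In the allele pair elav read 325, 224.5 and 206, nSyb 43.6, 6.1 and 38.3, and RhoGAP100F 59.6, 48.7 and 9.2. These overlapped the ey>wge arrays given above, with changes of -0.28 ± 0.22, 0.52 ± 0.52 and -0.76 ± 0.36.

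**Figure D3:**
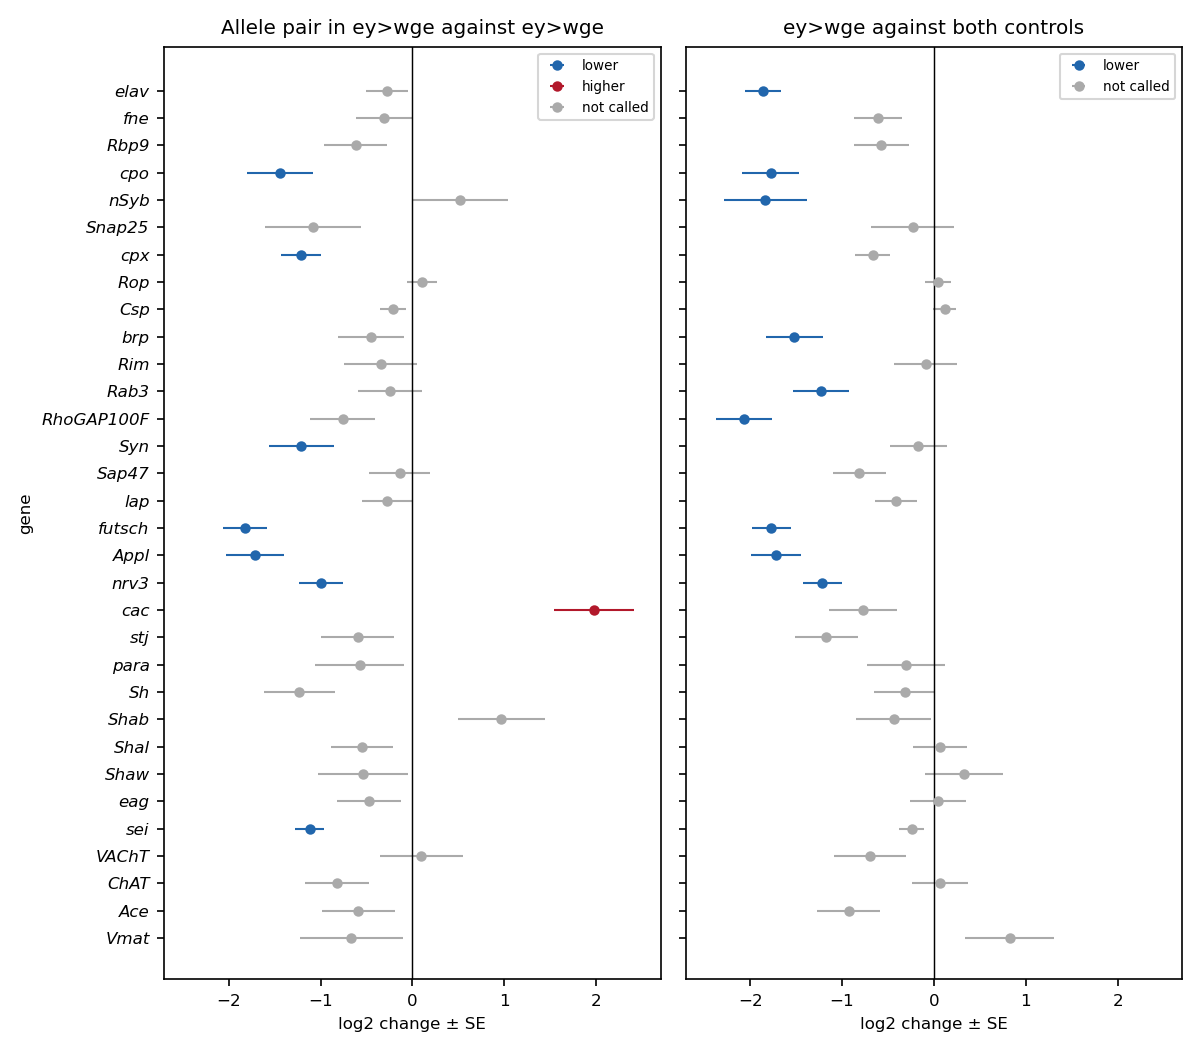
Log2 change (point) with its standard error (bar) of the 32 tested genes for the allele pair against ey>wge and for ey>wge against both controls, with genes called at an adjusted p under 0.05 in colour. The axonal genes and cpo are called lower in both panels, sei and cpx in the first, and elav and RhoGAP100F in the second, while cac is the 1 gene called higher.

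The axonal genes fell again. futsch read 140.2, 74.2 and 47.2 with the allele pair, against the 292 to 364 of ey>wge, a change of -1.82 ± 0.24 (adjusted p = 0.000224). Appl read 507, 307 and 124 with the allele pair, against 656.5 to 1101 in ey>wge, and changed by -1.71 ± 0.31 (adjusted p = 0.00386). nrv3 read 307, 306 and 126 with the allele pair, against 410.2 to 519 in ey>wge, and changed by -0.996 ± 0.24 (adjusted p = 0.0201). None of these groups overlapped, and replicate 3 was the lowest of the allele-pair arrays in each. cpo showed the widest spread, with 925, 525 and 169 in the allele pair, against 959 to 1493 in ey>wge (-1.44 ± 0.36, adjusted p = 0.0232). The call of cpo was lost without ey>wge replicate 1 or 3 or allele-pair replicate 2, and that of nrv3 without ey>wge replicate 1 or 2 or allele-pair replicate 3.

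Some genes that had not passed in ey>wge against the controls fell with the allele pair. sei had 279, 289 and 294 in the allele pair, against 589 to 698 in ey>wge, a 2.17-fold fall (-1.12 ± 0.16, adjusted p = 0.000489). Its 3 allele-pair arrays lay close together, and replicate 1 alone gave -1.16. cpx read 116, 90.8 and 146 in the allele pair, against 271 to 305 in ey>wge (-1.22 ± 0.22, adjusted p = 0.00348). Syn read 4.6 to 27.3 in the allele pair, below the 40th percentile on all 3 arrays, against 44.1 to 61.2 in ey>wge. The call of Syn was marginal (-1.21 ± 0.36, adjusted p = 0.0498) and did not survive leaving out any one array except allele-pair replicate 1. The potassium channel Sh read 1.2 to 37.5 in the allele pair, against 45.4 to 83.5 in ey>wge, and did not pass (-1.23 ± 0.38, adjusted p = 0.0615).

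cac moved the other way. It read 695, 255 and 113 in the allele pair, against 66.8, 49.5 and 59.0 in ey>wge, so that each allele-pair array was above each ey>wge array, by very different amounts. The change was 1.98 ± 0.43, or 3.94-fold higher (adjusted p = 0.0119), and it was not called without ey>wge replicate 2 or when only the arrays of these groups were fitted. Against both controls, which read 85.6 to 182, cac was higher by 1.21 ± 0.38 (adjusted p = 0.0285), but allele-pair replicate 3 lay within the control range, and it was not called without allele-pair replicate 1 or 2, ey-Gal4 replicate 1 or UAS-wge replicate 2 or 3. The other probe set of cac read 1.1 to 6.6 on all 12 arrays and bears on neither direction. No other calcium channel gene among the members rose, and stj read 44.3, 3.2 and 27.6 in the allele pair, overlapping ey>wge (-0.60 ± 0.40). The untested genes stayed dim in the allele pair, with 24.2, 9.5 and 5.7 for slo and 23.6, 3.9 and 13.9 for VGlut.

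Much of the shift with the allele pair lay in replicates 2 and 3. The median over the 32 genes of the log2 signal minus its ey>wge mean was -0.13 in replicate 1, -0.60 in replicate 2 and -0.66 in replicate 3, with 21, 29 and 26 of the 32 below. The same medians over all probe sets were 0.00, -0.10 and -0.13. With replicate 1 as the only allele-pair array, the median change from ey>wge was -0.125 over the members and -0.004 over all probe sets, and fewer members were called. The changes were -1.21 ± 0.26 for cpx, -1.12 ± 0.19 for futsch, -1.16 ± 0.20 for sei and 3.26 ± 0.39 for cac. In that fit the lone array is assumed to vary like the other groups. Without allele-pair replicate 2 or 3 the count of lower genes was 5, and without replicate 1 it was 9.

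The members are long genes, and replicates 2 and 3 of the allele pair read long genes low. From gene start to gene end the 34 members had a median span of 26.9 kb, between 2.64 and 225 kb, and 29 of them were longer than 10 kb. The median over the 9685 tested genes with a single symbol was 2.55 kb, with 16.5% longer than 10 kb. Over single genes, which are no independent replicates of one another, the Spearman correlation between gene span and the log2 signal minus the ey>wge mean was -0.302 and -0.398 in allele-pair replicates 2 and 3, -0.029 in replicate 1 and -0.019 to 0.158 on the other arrays, each ey>wge array being set against the other two. Among all tested probe sets of genes longer than 10 kb, 11% were lower with the allele pair than in ey>wge, and among the 27 tested members of that length 6 were lower. For ey>wge against both controls these figures were 4.8% of the long genes and 7 of the 27 members. With the trend of each array with gene span removed, 6 members were lower with the allele pair (Syn was no longer called) and their median change was -0.26. Over all probe sets in that fit 406 were lower, against 631 before the removal, and the median change was 0.015. The called members differed from the ey>wge mean by these amounts on allele-pair replicates 1, 2 and 3. cpo (99061 bases) changed by -0.39, -1.185 and -2.73, and Appl (48544 bases) by -0.85, -1.545 and -2.75. For futsch (44618 bases) the values were -1.12, -1.915 and -2.43, and for Syn (31754 bases) -0.70, -1.77 and -1.15. cpx (24384 bases) changed by -1.21, -1.52 and -0.92, and nrv3 (13320 bases) by -0.60, -0.60 and -1.79. sei (5625 bases) changed by -1.16, -1.11 and -1.08, and cac (53808 bases) by 3.26, 1.87 and 0.80. The part of span in the allele-pair changes of single genes was not tested.

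**Figure D4:**
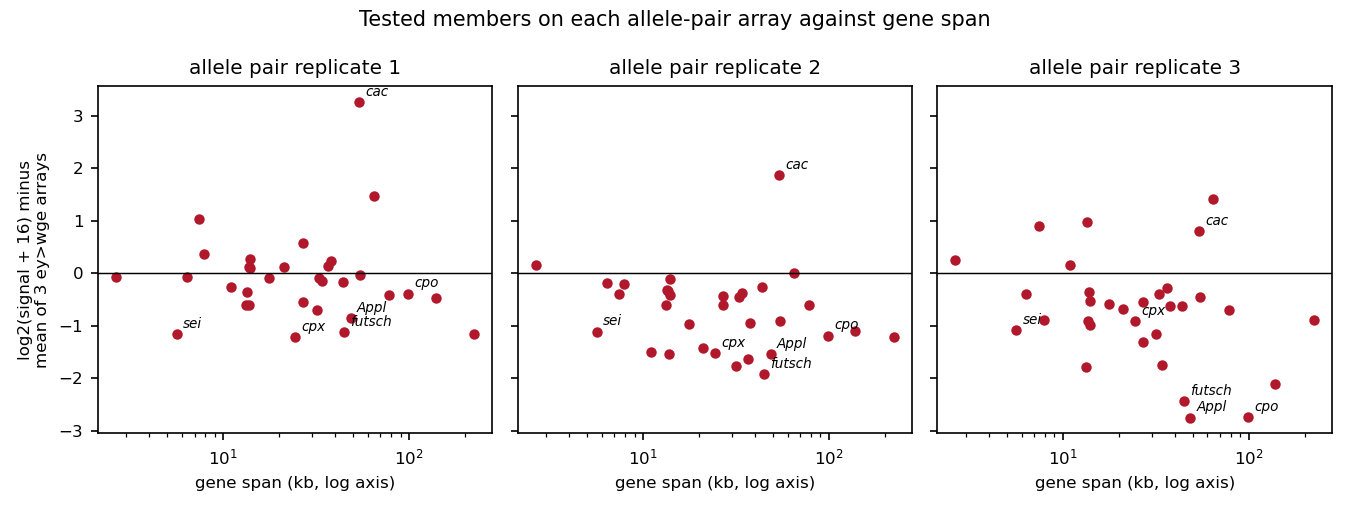
Each tested member on each allele-pair array, drawn as log2(signal + 16) minus the mean of the 3 ey>wge arrays against gene span in kb (log axis). The members centre near -0.13 in replicate 1 and at -0.60 and -0.66 in replicates 2 and 3, cac lies highest in each panel except replicate 3, and sei lies near -1.1 in all 3.

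Against both controls the allele pair shows the sum of these steps. Of the 32 tested genes 20 were lower, where 12.7% of all probe sets were lower, and 1, cac, was higher, where 8.46% were. The median change was -1.25, against -0.08 over all probe sets. futsch was lowest at -3.59 ± 0.21, 12-fold below the controls, followed by Appl at -3.43 ± 0.27 and cpo at -3.21 ± 0.31. In 18 of the 32 genes all allele-pair arrays lay below all control arrays (9.46% of all probe sets). All 4 RNA-binding proteins, 3 of 5 fusion proteins, 6 of 7 active zone genes, 3 of 3 axonal genes, 3 of 9 channels and 1 of 4 transmitter genes were lower. With the trend with gene span removed the count was 14, and fne, Rbp9, nSyb, Snap25, Sap47 and lap were no longer called. With quantile normalization or with arrays centred on their medians it was 15, without fne, nSyb, Snap25, Sap47 and lap. Rop (0.15 ± 0.14) and Csp (-0.10 ± 0.12) were again near 0. The weakest calls were nSyb, Snap25 and lap, at adjusted p-values of 0.0454, 0.0465 and 0.0422, and each was lost without single arrays of the allele pair and of both controls. With replicate 1 as the only allele-pair array fewer genes were lower, and the share over all probe sets in that fit is not given here. Among all genes longer than 10 kb 27.9% were lower in this comparison, and 17 of the 27 members of that length.

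Neuronal genes outside the member list were called in some groups and not in others. Of 8 tested genes of vesicle endocytosis, 13 other active zone and adhesion genes, 21 transmitter receptors and 9 other genes of transmitter synthesis and transport none was called in ey>wge against both controls, with median changes of -0.14, -0.23, 0.00 and 0.04. At an unadjusted p under 0.05 these lists had 2, 2, 2 and 3 genes. Over all probe sets 2.07% were lower, so counts of 0 or 1 in lists of this size do not set them apart. The 27 receptors with a probe set were dim, summing to 729 to 880 in ey-Gal4 and 830 to 1104 in UAS-wge. The 11 transmitter genes with a probe set summed to 397 to 450 and 345 to 396 in the same groups. Falls are harder to call in such dim genes. EndoA, endophilin, was closest among the endocytosis genes, at -0.89 ± 0.25 (adjusted p = 0.0735), and was called against ey-Gal4 alone. Of 15 other channel genes SK, a calcium-activated potassium channel, was lower (-1.21 ± 0.31, adjusted p = 0.0381), though it also differed between the controls, at -1.85 ± 0.36 in UAS-wge against ey-Gal4. Of 10 dense core vesicle and neuropeptide genes Cadps, which primes dense core vesicles, and amon, a prohormone convertase, were lower, at -1.11 ± 0.24 and -1.01 ± 0.25. Of 10 neuronal transcription factors nerfin-1 (-1.93 ± 0.22), onecut (-1.90 ± 0.27) and pros (-1.29 ± 0.32) were lower. Against UAS-wge alone SK, Cadps and pros were not called (adjusted p = 0.846, 0.0672 and 0.113). Against ey-Gal4 alone amon was not called (adjusted p = 0.117). Of 7 phototransduction genes inaC, the eye's protein kinase C, was lower (-1.37 ± 0.25).

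**Figure D5:**
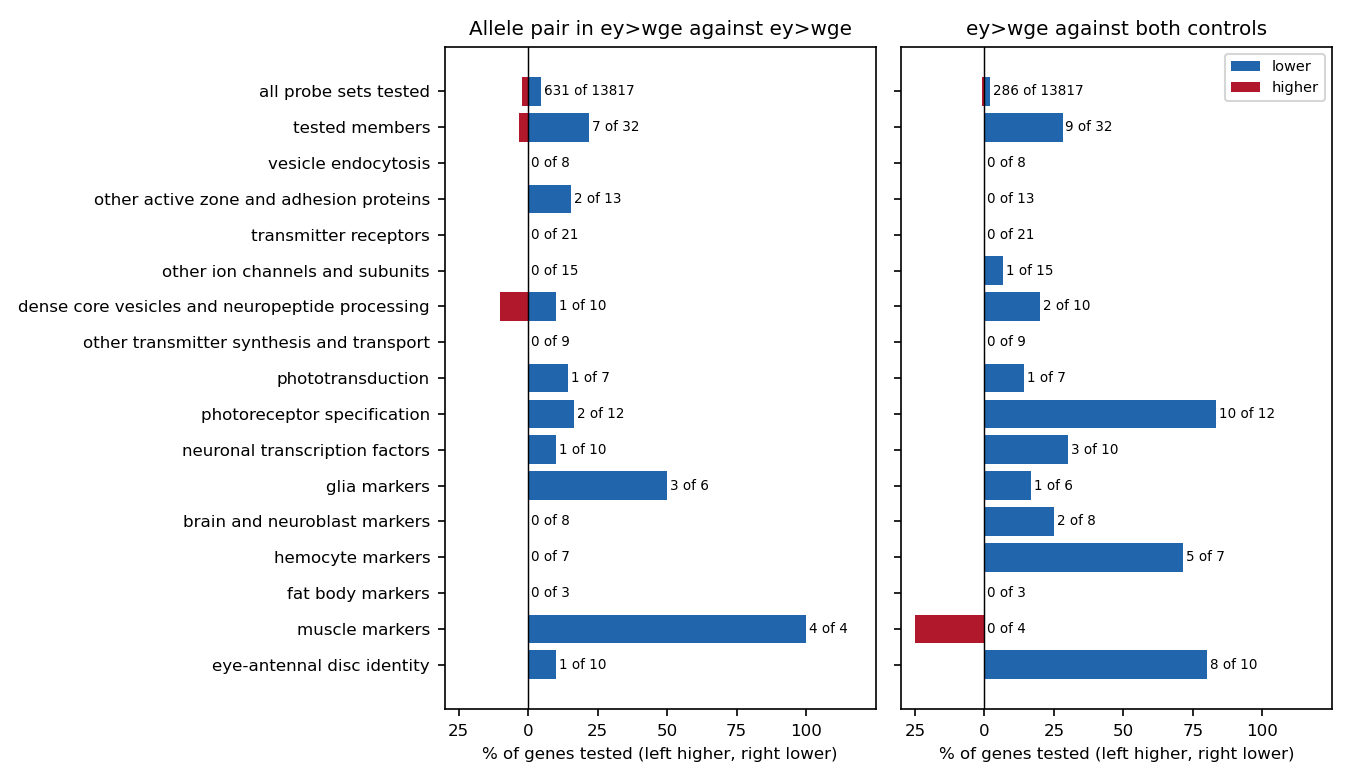
Share of tested genes called lower (blue, to the right) and higher (red, to the left) in each list, for the allele pair against ey>wge and for ey>wge against both controls, with the number lower of the number tested beside each bar. In the second panel 10 of 12 photoreceptor and 8 of 10 disc identity genes are lower, and 9 of 32 members; in the first, 4 of 4 muscle and 3 of 6 glia markers are lower, and 7 of 32 members.

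Of the cell type markers, those of photoreceptors fell with the members. The other lists were mixed, were not called or differed between the controls. The 12 photoreceptor specification genes summed to 4771 to 5125 signal units in ey>wge, against 11503 to 13389 in UAS-wge and 13077 to 14218 in ey-Gal4, and 10 of the 12 were lower than in both controls on average. They included gl (-2.17 ± 0.16), a transcription factor of photoreceptor differentiation, phyl (-1.64 ± 0.15), an adaptor needed for several photoreceptor fates, and ato (-1.34 ± 0.13), the proneural gene of R8. Against UAS-wge alone chp, B-H1, B-H2 and svp were not called (adjusted p = 0.489, 0.788, 0.0543 and 0.252). chp also differed between the controls, at -1.02 ± 0.22 in UAS-wge against ey-Gal4. boss, a ligand made by R8, read 2.8 to 6.5 in ey>wge, against 33.9 to 81.9 in UAS-wge and 47.0 to 85.3 in ey-Gal4. The 34 members summed to 9290 to 11109 in ey>wge, against 18206 to 18792 in UAS-wge and 19258 to 20436 in ey-Gal4. The brightest genes weigh most in such sums, and among the members these were cpo, Csp and Appl, with control medians of 4307.5, 3402.3 and 3021. Of 6 tested glia markers loco was lower in ey>wge (-0.92 ± 0.12), and the other 5 were not called, with repo, the glial selector, at -0.35 ± 0.28, Gs2 at 0.59 ± 0.21 and wrapper at 0.70 ± 0.37. The median over the 6 was -0.03, with 3 negative and 3 positive, and gcm read 1.8 to 19.5 on the arrays of ey>wge and the controls. Of 8 brain and neuroblast markers nerfin-1 and pros were lower, the same genes already counted among the neuronal transcription factors above. dpn, the neuroblast factor, was at 737 to 866 in ey>wge, against 610 to 932 in UAS-wge and 810 to 867 in ey-Gal4. Of 7 hemocyte markers 5 were lower in ey>wge, and 6 were higher in UAS-wge than in ey-Gal4. Their sums were 3019 to 3385 in ey>wge, 14089 to 21982 in UAS-wge and 3840 to 4940 in ey-Gal4, so that UAS-wge was far above the other groups and ey>wge was below ey-Gal4. Against ey-Gal4 alone 1 of the 7 was lower in ey>wge, PPO1, a prophenoloxidase, at -1.30 ± 0.22 (adjusted p = 0.0016). Of 4 muscle markers 1, Act87E, was higher in ey>wge than in both controls on average, with changes of 1.01 against UAS-wge and 0.40, not called, against ey-Gal4. The other 3, bt, up and Tm2, were lower in UAS-wge than in ey-Gal4, at -1.30, -1.46 and -1.20. Of 3 fat body markers none was called in ey>wge. The part of any of these cell types in the change of the members was not tested.

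With the allele pair another set of markers moved. All 4 muscle markers were lower than in ey>wge, summing to 1220 to 2316 in the allele pair, against 4101 to 5180 in ey>wge. Of the 6 glia markers moody (-1.62 ± 0.26), Gs2 (-1.37 ± 0.25) and loco (-0.48 ± 0.14) were lower. With the untested gcm the glia markers summed to 8442 to 13590 in the allele pair, against 12579 to 14056 in ey>wge. Most of these sums was Gli, which was not called, at 7179 in its lowest and 11364 in its highest allele-pair array. In ey>wge Gli read 9782 to 10263. Of the 12 photoreceptor genes chp (-1.80 ± 0.22) and B-H1 (-0.80 ± 0.18) were lower, and their sums overlapped, at 4166 to 5214 in the allele pair, against 4771 to 5125 in ey>wge. No brain and neuroblast, hemocyte or fat body marker was called. Of the other neuronal lists, CASK and Liprin-alpha among 13 active zone and adhesion genes, fru among 10 transcription factors, Galphaq among 7 phototransduction genes and svr among 10 dense core vesicle genes were lower. Cadps, also a dense core vesicle gene, was higher, at 2.23 ± 0.28 (adjusted p = 0.000144). Over all probe sets 4.57% were lower and 2.23% higher in this comparison, so counts of 0 or 1 in such short lists do not set them apart. Of 21 receptors, 15 other channels and 8 endocytosis genes 0 were called. Their median changes were -0.31, -0.48 and -0.25, and 0, 5 and 3 of their genes had an unadjusted p under 0.05. These called genes are named because they passed, after their values were seen. The part of these cell types in the changes with the allele pair was not tested.

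Other probe sets of the same genes bear on few of these calls. Of the 34 members 14 had more than 1 probe set, with 26 further probe sets of which 20 were tested. A second probe set of cpo was lower in ey>wge against both controls, at -1.53 (adjusted p = 0.000188), and again with the allele pair, at -1.15 (adjusted p = 0.0108). A second probe set of cpx was not called in either comparison (0.42 and 0.10), but was higher in UAS-wge, at 162 to 228, than in ey-Gal4, at 9.4 to 69 (2.06, adjusted p = 0.00125). The remaining further probe sets of futsch and brp were dim, between 1.7 and 93.3, and none was called. When a gene's probe sets were averaged in place of taking the brightest, brp and futsch were no longer called in ey>wge against both controls, at -0.35 and -0.86, nor futsch, cpx and cpo with the allele pair against ey>wge, at -0.49, -0.56 and -0.92, and cpo was also not called in ey>wge against ey-Gal4, at -1.09.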

How the data were processed

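The authors deposited 1 signal intensity per probe set and array on a linear scale, made with MAS5 per the submitters' processing notes (version not given in the sources used here). The 2% trimmed mean lay between 500.01 and 500.02 on every array. All 12 arrays of 4 genotypes entered 1 fit in R 4.3.3 with limma 3.58.1. Of 18952 deposited probe sets, 183 control sets were left out and 13817 lay above the 40th percentile of their array on at least 3 arrays. On log2(signal + 16) a mean was fitted per genotype, with an empirical Bayes variance prior that follows the mean signal. Adjusted p-values are two-sided, by the Benjamini-Hochberg method over all 13817, and a gene is called under 0.05. Gene names came from the platform annotation, and gene spans from a RefSeq gene table. The members, their roles and the 15 other gene lists were chosen with earlier results of these data known. All members are named. Values on every array are given for elav, for the 3 genes of each role with the smallest adjusted p in ey>wge against both controls, for the 6 with the smallest in the allele pair against ey>wge, for genes called higher and for untested genes. Other lists are given by counts, medians and up to 3 genes with the smallest adjusted p in ey>wge against both controls, and markers named beyond these were chosen after their values were seen. Same-numbered replicates of different genotypes did not deviate together (18 pairs, r between -0.049 and 0.083), so the numbers were not taken as pairs. The fit was tested on simulated data. Alternatives were other scalings, pseudocounts, filters, variance priors, array weights, arrays left out, the mean of a gene's probe sets and removal of the span trend. The number of arrays limits the precision.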

Additional observations from a re-analysis of the deposited data

How the results depend on the processing

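No called change reversed its direction in any alternative, but some changes that were not called did. In the allele pair against ey>wge 27 of the 32 members had a negative change, and 21 with the span trend removed. The count of 9 genes lower in ey>wge against both controls stayed between 6 and 12 in all alternatives and between 6 and 11 without single arrays. The 7 genes lower against each control separately became 3 with a variance prior without a trend, 4 with the mean of a gene's probe sets and 4 to 8 without single arrays (4 without UAS-wge replicate 1, UAS-wge replicate 2 or ey>wge replicate 3). The 7 genes lower with the allele pair against ey>wge became 16 with array weights, 4 with only the arrays of these groups, 4 with the mean of a gene's probe sets, 3 with the prior without a trend, 3 with allele-pair replicate 1 alone and 4 to 9 without single arrays (4 without ey>wge replicate 1). The 1 gene higher with the allele pair, cac, became 0 with the prior without a trend, 0 with only the arrays of these groups and 0 to 1 without single arrays. The 20 genes lower in the allele pair against both controls became 8 with allele-pair replicate 1 alone and 15 to 19 without single arrays. The 2 genes that differed between the controls became 1 with a pseudocount of 1, 1 without a filter, 1 with the mean of a gene's probe sets, 0 with the prior without a trend, 4 with only the arrays of these groups and 0 to 3 without single arrays. Where an alternative used fewer arrays or another value for a gene, its construction differs, and otherwise the cause was not tested. With the replicate number as a block (replicate block) the counts were 9, 6, 7, 1, 20 and 2 in the same order, and brp against UAS-wge was the 1 call lost. Over single genes, 1183 of the repeated calls were kept and 210 were lost. elav, RhoGAP100F, Appl, cpo and nrv3 (ey>wge against both controls) and sei (allele pair against ey>wge) were called in every alternative run. Genes near the 40th percentile, such as para, Shab and VAChT, could be measured only roughly.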

Other observations

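Cadps, a priming factor of dense core vesicles that is no member of the set, was called in both comparisons. It read 862 to 1840 in the allele pair, against 169 to 296 in ey>wge, with 318 to 643 in UAS-wge and 545 to 675 in ey-Gal4. It was higher in the allele pair than in ey>wge by 2.23 ± 0.28 (adjusted p = 0.000144). In ey>wge it was lower than the average of both controls by a log2 change of -1.11 ± 0.24 (adjusted p = 0.0134). Against each control it was called for ey-Gal4 (-1.24, adjusted p = 0.0161) and not for UAS-wge (-0.98, adjusted p = 0.0672). It was singled out after its values were seen. Of the disc's 10 identity genes 8 were lower in ey>wge than in the average of both controls, among them dan, toy and danr at -1.89, -1.47 and -1.33. Against ey-Gal4 alone Optix was not called (-0.58, adjusted p = 0.201). toy was the 1 identity gene lower again with the allele pair, at -0.59.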
